A study of Mus musculus with 14 samples.

Results

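Fc gamma receptors bind the constant part of IgG antibodies, and the 6 genes described here code for the receptors of that family in the mouse (Fcgr1, Fcgr2b, Fcgr3 and Fcgr4), the signalling chain that 3 of them share (Fcer1g) and the intracellular IgG receptor FcRn (Fcgrt). They were chosen by name, as the genes to which the RefSeq accessions of the array probes map. All 6 had a probe, out of 20660 genes named on the array, and all 6 passed the filter on dim probes, as did 20346 genes in all. Each of the 6 was represented by 1 probe.

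The RNA came from peritoneal cells of C57BL/6 mice that had been sorted as positive for both CD11b and F4/80, a pair of surface proteins of macrophages. The PBS group (3 arrays) received the vehicle and holds resident macrophages. The IL-4c group (4 arrays) received IL-4 complex, 5 µg of the cytokine IL-4 bound to 25 µg of the antibody 11B11, which prolongs its action. The Thio group (3 arrays) received 2 ml of 4% thioglycollate medium, an irritant that draws monocyte-derived macrophages into the cavity, and the Thio+IL-4c group (4 arrays) received both. All injections went into the peritoneum. The antibody 11B11 is itself a rat IgG and the vehicle held no antibody, so an effect of IL-4 and an effect of injected IgG cannot be told apart. The labels used here give neither the age of the mice nor the time between injection and harvest, and they do not settle whether replicates were separate animals, so the p-values measure the spread between these samples, which may be technical. The mice were kept at NYU and the University of Edinburgh, and the labels do not say which sample came from where.

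Fcgr1, Fcgr3 and Fcgr4 are activating receptors. Their ligand-binding chains carry no signalling motif of their own and pair with the Fcer1g chain, whose ITAM (a tyrosine motif) recruits the kinase Syk and starts phagocytosis and the oxidative burst. Fcgr1 binds monomeric IgG with high affinity, whereas Fcgr3 and Fcgr4 bind mainly immune complexes. Fcgr2b is the inhibitory receptor of the family: its ITIM recruits the lipid phosphatase SHIP1, coded by Inpp5d, and dampens the activating receptors. Fcgrt pairs with B2m, not with Fcer1g, and returns IgG from endosomes to the cell surface. In monocytes and macrophages, interferon gamma is known to raise Fcgr1, and IL-4 is known in human monocytes to raise the inhibitory receptor against the activating ones.

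The sequences before the start sites of 3 of the genes are shown. Fcgr1 had the largest difference of the family, Fcgr4 had its lowest level where both agents were given, and Fcgr2b had a higher level under IL-4c. These sequences do not cover every pattern of the family. They are the 250 bases before the start in RefSeq's mouse annotation (GRCm38.p6), at chr3:96293970-96294219 on the minus strand for Fcgr1, chr1:171018676-171018925 on the plus strand for Fcgr4 and chr1:170976072-170976321 on the minus strand for Fcgr2b. Capitals mark matches to the 4 motifs searched.
Fcgr1: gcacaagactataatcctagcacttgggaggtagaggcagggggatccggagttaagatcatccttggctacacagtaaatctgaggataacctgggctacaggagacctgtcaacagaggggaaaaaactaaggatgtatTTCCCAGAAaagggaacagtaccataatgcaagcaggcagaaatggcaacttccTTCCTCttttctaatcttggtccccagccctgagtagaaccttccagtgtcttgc
Fcgr4: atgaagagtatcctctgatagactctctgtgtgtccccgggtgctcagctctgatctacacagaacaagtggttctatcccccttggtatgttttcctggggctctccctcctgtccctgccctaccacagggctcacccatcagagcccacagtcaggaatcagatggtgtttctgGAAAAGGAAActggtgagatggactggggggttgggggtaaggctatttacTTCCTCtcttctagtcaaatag
Fcgr2b: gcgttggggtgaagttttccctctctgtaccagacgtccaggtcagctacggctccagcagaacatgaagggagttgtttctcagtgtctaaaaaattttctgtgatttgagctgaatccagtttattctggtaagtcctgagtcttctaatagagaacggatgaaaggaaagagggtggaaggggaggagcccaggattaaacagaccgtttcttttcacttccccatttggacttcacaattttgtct
The motifs were searched on both strands of windows that run from 250 bases before to 50 bases after the start: TTCNNNGAA (the gamma-activated site of STAT factors), TTCNNNNGAA (STAT6), GAGGAA (PU.1, the macrophage transcription factor coded by Spi1) and GAAANNGAAA (the interferon response element). The Fcgr1 window held a gamma-activated site that starts 109 bases before the gene start, a match found in 8.3% of all 32851 windows, and a PU.1 match on the other strand 55 bases before it. The Fcgr4 window held an interferon response element 73 bases before the start, found in 3.44% of windows, and a PU.1 match 22 bases before it. The PU.1 letters occurred in 28.3% of windows, and the first of the 2 windows of Fcgr3 held them too, 6 bases before the start (15 in the other). The STAT6 letters, in 6.95% of all windows, were in none of the 6 genes' windows, and the windows of Fcgr2b, Fcer1g and Fcgrt held no match to any of the 4. Fcgr2b, Fcgr3, Fcgr4 and Fcer1g lie on chromosome 1, Fcgr1 on chromosome 3 and Fcgrt on chromosome 7.

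A level is the log2 processed signal of the gene's probe minus the 75th percentile of that signal over the probes of the same array, so 0 is that percentile. Each gene can be followed across arrays, but the levels of 2 genes, read by 2 probes, are not compared. On each array 79.2% to 95.7% of probes exceeded the background clearly, and no spot was saturated. The 14 arrays came from 2 slides, the first with the PBS and IL-4c groups and Thio 1, the second with Thio 2, Thio 3 and the Thio+IL-4c group. Thio 1 stood apart: over all genes it correlated at 0.848 and 0.865 with Thio 2 and Thio 3, and at 0.917 to 0.931 with the PBS arrays, against 0.956 to 0.987 within the other groups. For the 6 genes described here, Thio 1 lay 0.19 to 0.47 above the mean of Thio 2 and Thio 3.

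The macrophage markers Itgam, Adgre1 (the gene for F4/80), Csf1r, Mertk and Cd14 were well above background on all 14 arrays, while Cd68 had no named probe. Their summed linear signal, as a multiple of the 75th percentile, was 403 to 469 in PBS, 252 to 264 in IL-4c, 136 to 184 in Thio and 118 to 139 in Thio+IL-4c. That percentile differed too, at 1199.5 to 1712 in PBS, 2849 to 3605 in IL-4c, 2141 to 3416 in Thio and 1948 to 2403 in Thio+IL-4c. All sums given here depend on it, and its part in their differences between groups was not tested. Markers of other cells moved with the groups as well. The 9 B cell markers summed to 10.7 to 19.6 in PBS and to 3.01 to 4.12 in the other 3 groups. The 6 dendritic cell markers summed to 4.3 to 5.86 in PBS, 9.86 to 11.3 in IL-4c, 4.35 to 6.08 in Thio and 19.3 to 29.7 in Thio+IL-4c, where Batf3 made up 83.6% of the sum. The 7 mast cell and basophil markers summed to 13.9 to 15.3 in PBS, 8.16 to 11.5 in IL-4c, 2.25 to 5.07 in Thio and 1.66 to 2.29 in Thio+IL-4c. The 9 neutrophil markers summed to 37.2 to 42.7 in IL-4c and 50.7 to 72.2 elsewhere, with Csf3r as 71% to 92.9% of the sum and Ly6g without a named probe. The 9 T and NK cell markers ranged over all arrays from 7.51 to 14.2 and the 5 eosinophil markers from 0.864 to 1.71. The part of these cells in the Fc receptor levels was not tested, and in bulk RNA fewer cells of a type and less RNA per cell cannot be told apart.

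Fcgr1 codes for the high-affinity receptor CD64, used in the mouse as a marker of macrophages. Its level was 0.37, 0.70 and 1.23 in PBS 1 to 3, and 1.91, 1.30 and 1.58 in Thio 1 to 3. It was -5.89, -6.86, -5.07 and -5.88 in IL-4c 1 to 4, and -1.94, -0.86, -0.98 and -1.51 in Thio+IL-4c 1 to 4. The 4 groups were fully separate, in the order Thio, PBS, Thio+IL-4c, IL-4c. The probe was well above background on 13 of 14 arrays, the exception being IL-4c 2, which also had the lowest level.

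Fcgr3, the gene for the low-affinity receptor CD16, was at 5.06, 5.19 and 5.13 in PBS 1 to 3. It was at 3.96, 3.99, 4.07 and 4.12 in IL-4c, at 4.36, 3.98 and 4.07 in Thio, and at 4.37, 4.23, 4.48 and 4.32 in Thio+IL-4c. The PBS arrays were the highest and shared no value with the rest. In the order PBS, Thio+IL-4c, Thio, IL-4c, the Thio group overlapped with both its neighbours: Thio 1 lay among the Thio+IL-4c arrays, and Thio 2 and Thio 3 among the IL-4c arrays.

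Fcgr4, the receptor of intermediate affinity for IgG2, was at 3.51, 3.40 and 4.39 in PBS 1 to 3 and at 4.20, 4.11 and 3.90 in Thio. It was at 2.35, 2.05, 3.12 and 2.77 in IL-4c and at 1.96, 1.47, 1.56 and 1.25 in Thio+IL-4c. PBS and Thio overlapped, since PBS 3 was the highest array of all. Both groups given IL-4c lay below them, and the Thio+IL-4c arrays were the lowest 4, in contrast to Fcgr1, whose lowest arrays were those of IL-4c alone.

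Fcer1g, the shared ITAM chain, was at 6.14, 6.51 and 6.41 in PBS 1 to 3 and at 6.99, 6.55 and 6.49 in Thio. It was at 5.35, 5.14, 5.30 and 5.55 in IL-4c and at 5.96, 5.71, 5.72 and 5.75 in Thio+IL-4c. PBS and Thio overlapped, and the IL-4c arrays were lowest, with no overlap between IL-4c, Thio+IL-4c and the groups without IL-4c.

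Fcgr2b, the inhibitory receptor, had the opposite order. It was lowest in Thio at 3.52, 3.17 and 3.28 and next in PBS at 3.80, 3.92 and 3.62. It was at 4.47, 4.40, 4.64 and 4.26 in Thio+IL-4c and highest in IL-4c at 5.47, 5.45, 5.35 and 5.43. The 4 groups did not overlap. The Fcgr2b probe is spotted 10 times on each array, so its spread within an array is known: the SD between spots was 0.0728 to 0.194, with a median of 0.156. On Thio 2, Thio 3, Thio+IL-4c 1 and Thio+IL-4c 3, 1 of the 10 spots was marked as an outlier by the scanner software and was left out. It was the same spot, and the brightest, on each of them. On the other arrays that spot was the brightest or next to brightest and was kept. The SD thus includes a lasting difference between spots, and leaving that spot out lowers the SD and level of those arrays.

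**Figure D1:**
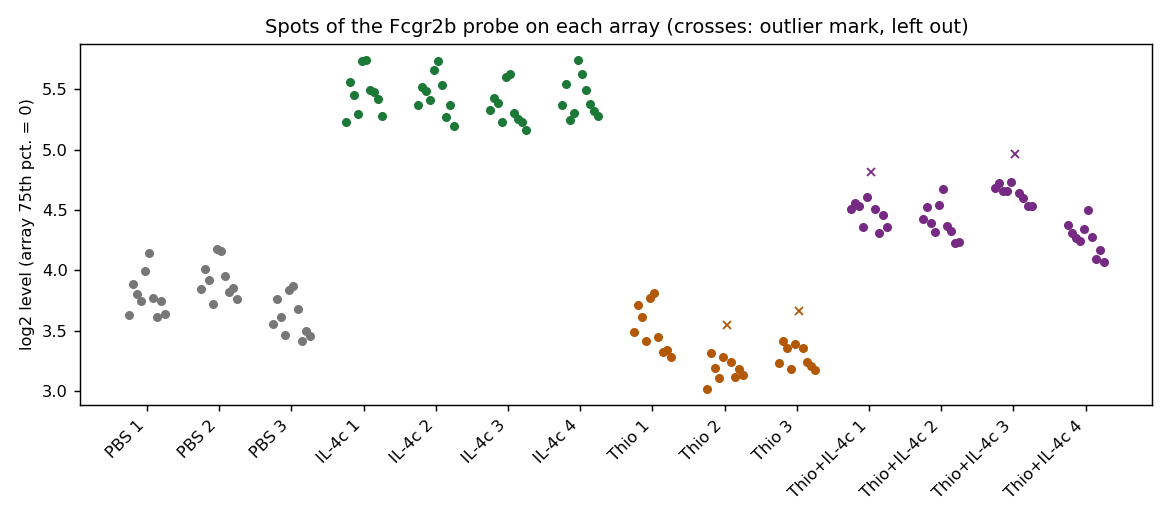
Log2 level of each of the 10 spots of the Fcgr2b probe on each array, relative to the array's 75th percentile (y axis), with arrays by group on the x axis and crosses for the spots left out. The spots of the 4 IL-4c arrays lie above those of all other arrays, and the spots of PBS and Thio arrays overlap.

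Fcgrt, the gene for FcRn, was at 4.15, 4.53 and 4.17 in PBS 1 to 3. It was at 2.27, 2.04, 2.42 and 2.26 in IL-4c and at 2.83, 2.31 and 2.60 in Thio. It was lowest in Thio+IL-4c, at 0.91, 0.96, 1.12 and 0.51. IL-4c and Thio overlapped with each other, while PBS lay above both and Thio+IL-4c below both.

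**Figure D2:**
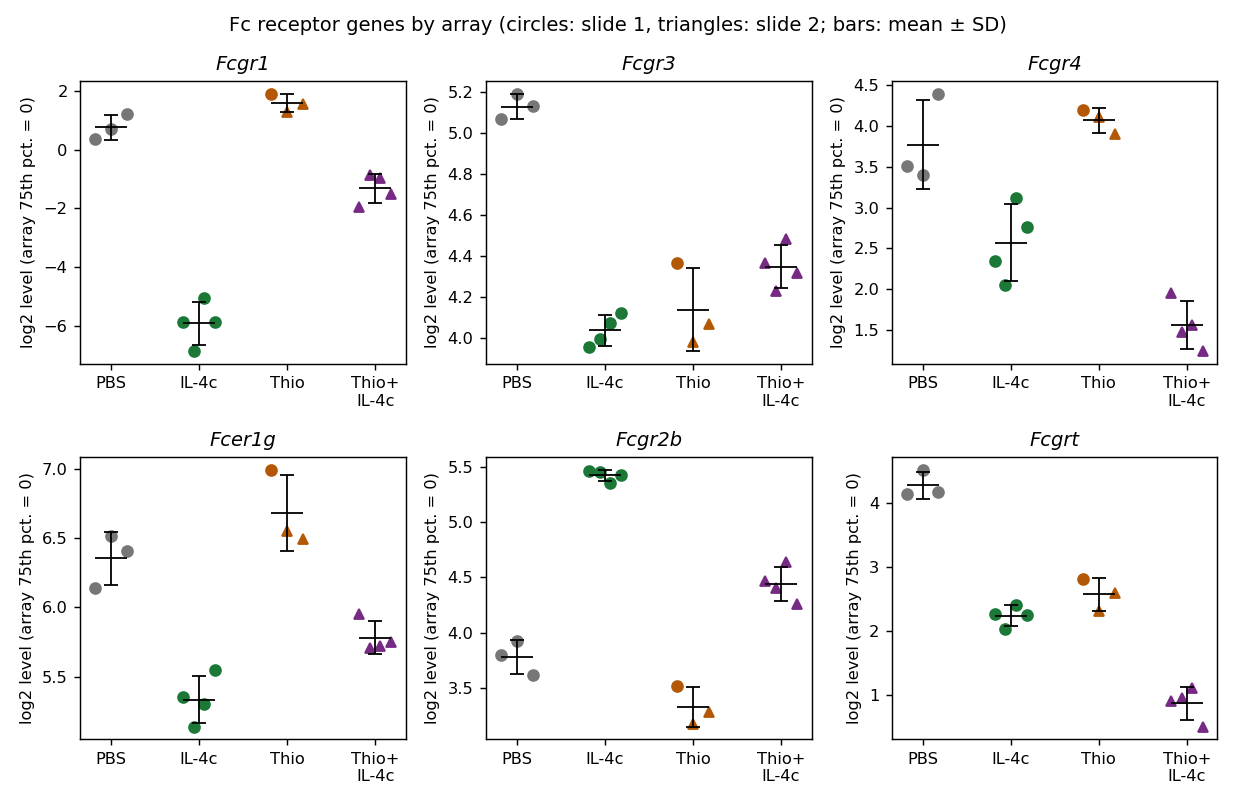
Log2 level of the 6 genes on each array, relative to the array's 75th percentile (y axis, scaled per gene), by group on the x axis, with circles for slide 1, triangles for slide 2 and black bars for the mean ± SD. Fcgr2b is highest in the IL-4c arrays (5.35 to 5.47), in which Fcgr1 (-6.86 to -5.07) and Fcer1g (5.14 to 5.55) are lowest, and Fcgrt is highest in PBS.

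In resident cells, IL-4c was followed by a higher level of the inhibitory receptor and lower levels of the 3 activating receptors, their signalling chain and FcRn. All 6 genes passed the test, 1 higher and 5 lower, where 31.6% of all genes tested passed in either direction, 16.8% higher and 14.8% lower. Fcgr1 fell from 0.76 ± 0.43 (SD, n = 3) to -5.93 ± 0.73 (SD, n = 4), a log2 difference of -6.69 (SE 0.39, adjusted p = 1.9e-07), which is 103-fold. Only 0.0885% of genes had a larger absolute difference in this comparison. The size of the Fcgr1 fall differed with the processing: it was -4.74 in the authors' deposited table, -5.43 with normexp background correction at the 75th percentile and -6.27 with quantile normalization of the processed signal.

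Fcgr2b rose in the same cells from 3.78 ± 0.15 (SD, n = 3) to 5.43 ± 0.05 (SD, n = 4), a log2 difference of 1.65 (SE 0.12, adjusted p = 9.9e-07) or 3.14-fold. Fcgrt fell by 2.03 on the log2 scale (SE 0.17, adjusted p = 3.3e-06). Fcgr4 fell by 1.20 (SE 0.29, adjusted p = 0.0069), Fcgr3 by 1.09 (SE 0.11, adjusted p = 1.2e-05) and Fcer1g by 1.02 (SE 0.15, adjusted p = 0.00023). None of these groups overlapped, and all arrays of both groups were on the first slide. The share of all genes whose groups do not overlap was not computed in any comparison, so the lack of overlap is a description only. Fcgr3 had the smallest spread of the 6 in PBS (SD 0.06) and Fcgr4 the largest (SD 0.54). These differences are relative to the array's 75th percentile, which was 1199.5 to 1712 in PBS and 2849 to 3605 in IL-4c. Before this scaling, the processed signal of Fcgr3 was 42000 to 61794.5 in PBS and 49379 to 57363 in IL-4c. For Fcer1g it was 101786 to 154769 and 119930 to 133253, and for Fcgr4 17942 to 25210 and 14966 to 26352. Over the alternatives the smallest differences were -0.69 for Fcer1g, -0.79 for Fcgr3 and -0.88 for Fcgr4.

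In thioglycollate-elicited cells, IL-4c was likewise followed by higher Fcgr2b and by lower Fcgr1, Fcgr4, Fcer1g and Fcgrt, but Fcgr3 did not pass the test. The call was made for 5 of 6 genes, 1 higher and 4 lower, against 38.9% of all genes, 16.1% higher and 22.8% lower. Fcgr1 fell by 2.92 (SE 0.39, adjusted p = 9.4e-05), from 1.59 ± 0.31 (SD, n = 3) to -1.32 ± 0.50 (SD, n = 4). Fcgr4 fell by 2.51 (SE 0.29, adjusted p = 2.8e-05), from 4.07 ± 0.15 (SD, n = 3) to 1.56 ± 0.30 (SD, n = 4), which is 5.7-fold.

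Fcgrt fell by 1.70 in the elicited cells (SE 0.17, adjusted p = 1.1e-05) and Fcer1g by 0.89 (SE 0.15, adjusted p = 0.00052). Fcgr2b rose by 1.12 (SE 0.12, adjusted p = 1.7e-05), from 3.33 ± 0.18 (SD, n = 3) to 4.44 ± 0.16 (SD, n = 4). The difference of Fcgr3 was 0.21 (95% interval -0.03 to 0.45, adjusted p = 0.15), with overlapping groups. Without Thio 1, whose slide differs from that of the other 6 arrays of the comparison, the Fcgr3 difference was 0.32 (adjusted p = 0.0135) and passed the test. Without that array the differences of the other 5 genes were -2.76 for Fcgr1, -2.45 for Fcgr4, -1.58 for Fcgrt, -0.74 for Fcer1g and 1.21 for Fcgr2b, and all 5 still passed.

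The effect of IL-4c itself differed between elicited and resident cells for 4 of the 6 genes, where 32.3% of all genes passed the test of this difference, 12.5% higher and 19.8% lower. Fcgr1 fell less in elicited cells, by a difference of 3.77 between both effects (SE 0.55, adjusted p = 0.00031), and this difference was 1.84 in the authors' deposited table. Fcgr3 fell in resident cells and did not pass in elicited cells, and the effect on it differed by 1.30 (SE 0.15, adjusted p = 7.1e-05). Fcgr4 fell more in elicited cells, by -1.31 (SE 0.41, adjusted p = 0.029). Fcgr2b rose less there, by -0.53 (SE 0.17, adjusted p = 0.033).

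The differences of Fcgr4 and Fcgr2b lie near the threshold. For Fcgr4 the call was lost without PBS 1, PBS 2, IL-4c 3, IL-4c 4, Thio+IL-4c 2 or Thio+IL-4c 4, with values of -1.28 to -1.13 and adjusted p of 0.0504 to 0.0752. For Fcgr2b it was lost without PBS 1, PBS 3, IL-4c 1, IL-4c 2, IL-4c 4, Thio+IL-4c 2 or Thio+IL-4c 4, with values of -0.54 to -0.45 and adjusted p of 0.0578 to 0.0878. It was also lost with quantile normalization (-0.42, adjusted p = 0.062), with normexp and quantile normalization (-0.42, adjusted p = 0.052) and with the replicate number as a block (-0.53, adjusted p = 0.066). The effects on Fcer1g and Fcgrt did not pass this test, with differences of 0.12 (95% interval -0.34 to 0.59, adjusted p = 0.68) and 0.33 (95% interval -0.21 to 0.87, adjusted p = 0.32). The sign of the Fcer1g difference turned under quantile normalization (-0.34).

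**Figure D3:**
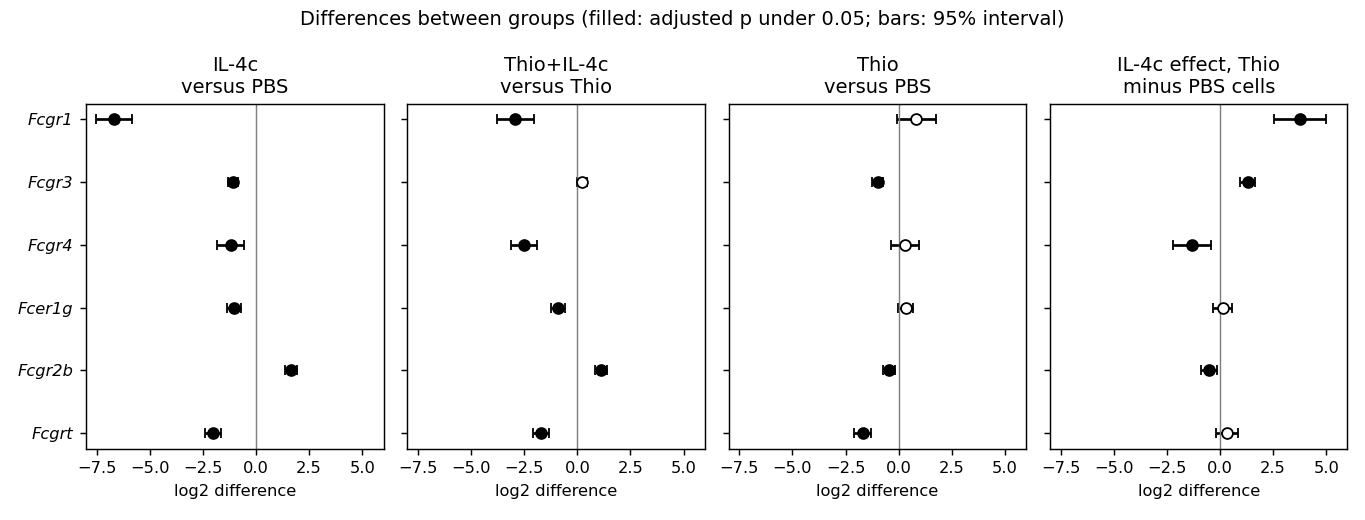
Log2 differences between groups for the 6 genes (x axis, same scale in each panel), with 95% intervals as bars and filled points for adjusted p under 0.05. Fcgr2b is the 1 gene to the right of 0 with a call in both IL-4c comparisons (1.65 and 1.12), and Fcgr1 has the largest fall in each (-6.69 and -2.92).

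With thioglycollate alone, Fcgr3, Fcgrt and Fcgr2b were lower than in resident cells, and no member of the family passed as higher in the main fit. That is 3 of 6 genes, close to the share of 44.3% of all genes, 19.9% higher and 24.3% lower. The count is thus no result about the family. Fcgrt fell by 1.70 (SE 0.19, adjusted p = 2.1e-05) and Fcgr3 by 0.99 (SE 0.12, adjusted p = 4e-05). Without Thio 1 their differences were -1.82 and -1.10, and Thio 1 by itself lay 1.46 and 0.76 below the PBS mean of the same slide. Fcgr2b fell by 0.45 (SE 0.13, adjusted p = 0.016), but lost its call with the slide as a block (-0.26, adjusted p = 0.26), a fit in which this comparison rests on Thio 1, and with it as a random block (-0.29, adjusted p = 0.18). The call also ended in the authors' deposited table (-0.32, adjusted p = 0.11) and with only the groups compared (adjusted p = 0.13). It was lost as well without PBS 2 (-0.38, adjusted p = 0.066), Thio 2 (-0.38, adjusted p = 0.065) or Thio 3 (-0.43, adjusted p = 0.051).

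The differences of the other 3 genes after thioglycollate did not pass: 0.83 for Fcgr1 (95% interval -0.09 to 1.75, adjusted p = 0.12), 0.33 for Fcer1g (95% interval -0.03 to 0.68, adjusted p = 0.11) and 0.30 for Fcgr4 (95% interval -0.38 to 0.98, adjusted p = 0.44). The 3 Fcgr1 arrays of Thio all lay above those of PBS, whereas the Fcer1g and Fcgr4 arrays overlapped. Fcer1g passed under quantile normalization (0.95, adjusted p = 4.6e-05) and in the authors' deposited table (0.48, adjusted p = 0.033). With the slide as a block the Fcer1g difference was 0.64, which is that of Thio 1 alone, against 0.17 for Thio 2 and Thio 3. Fcgr1 passed in the authors' deposited table (0.91, adjusted p = 0.023) and with normexp background correction at the 75th percentile (0.83, adjusted p = 0.046).

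Between the groups given IL-4c, elicited cells had more Fcgr1, Fcgr3 and Fcer1g and less Fcgr2b, Fcgr4 and Fcgrt than resident cells. All 6 genes passed, where 70.1% of all genes did, 27.4% higher and 42.7% lower. These groups lie on different slides, tied together by Thio 1 alone, so the slide and the cell origin cannot be told apart. Fcgr1 was 4.61 higher (SE 0.36, adjusted p = 9.5e-07), Fcgrt 1.37 lower and Fcgr2b 0.98 lower. Fcgr4 was 1.01 lower, a call that ended with the slide as a block (-0.83, adjusted p = 0.31). Fcgr3 was 0.31 higher (adjusted p = 0.016), a call that ended without Thio+IL-4c 3 (0.27, adjusted p = 0.0504) and turned sign in the authors' deposited table (-0.02). Fcer1g was 0.45 higher (adjusted p = 0.013), and 0.12 in the authors' deposited table (adjusted p = 0.45).

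The level of each activating receptor and of Fcer1g relative to the inhibitory receptor, as the change of their log2 ratio from the PBS mean, puts these shifts together; it is a description with no test. For Fcgr1 over Fcgr2b the change was -8.34 on average in IL-4c (arrays from -9.30 to -7.41), 1.28 in Thio (1.14 to 1.40) and -2.75 in Thio+IL-4c (-3.40 to -2.25). For Fcgr4 over Fcgr2b it was -2.85, 0.75 and -2.87 in the same groups. For Fcgr3 over Fcgr2b it was -2.74, -0.54 and -1.45, and for Fcer1g over Fcgr2b it was -2.67, 0.78 and -1.23. In both groups given IL-4c this ratio lay below the PBS mean for all 4 genes on every array, and in Thio alone above it for Fcgr1, Fcgr4 and Fcer1g.

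Over the 14 arrays, which share their scaling and whose spread is mostly that between the 4 groups, Fcgr1 and Fcgr2b had a Pearson r of -0.965. Fcer1g ran with Fcgr1 (0.911) and against Fcgr2b (-0.918). Among the other 5 genes, Fcgr4 was most like Fcgrt (0.789), and so was Fcgr3 (0.654).

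The 3 genes most like Fcgr1 over these arrays were Adck5 (r = 0.985), Ebi3 (0.984) and Irf8 (0.982). Irf8, a transcription factor of the monocyte and macrophage lineage, is also on the list of interferon and myeloid genes below. Its level was 3.93 ± 0.09 (SD, n = 3) in PBS, -2.29 ± 0.40 (SD, n = 4) in IL-4c, 4.33 ± 0.37 (SD, n = 3) in Thio and 1.28 ± 0.10 (SD, n = 4) in Thio+IL-4c. It fell by 6.22 with IL-4c in resident cells (SE 0.21, adjusted p = 4e-09) and by 3.05 in elicited cells (SE 0.21, adjusted p = 6.2e-07), against 6.69 and 2.92 for Fcgr1.

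**Figure D4:**
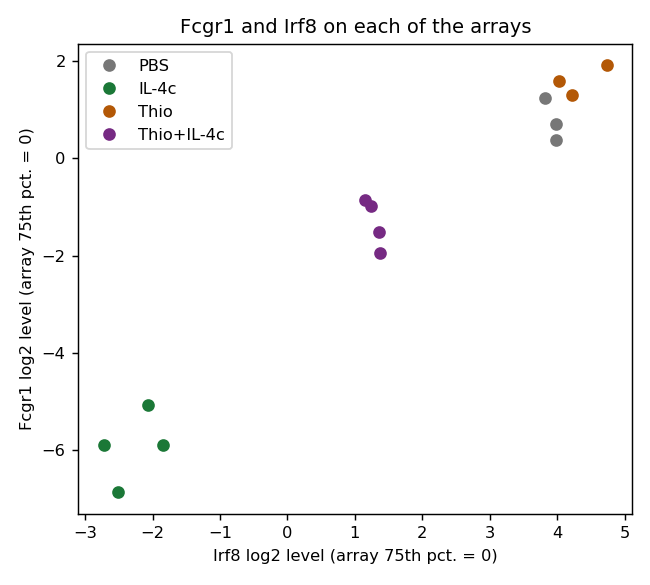
Log2 level of Fcgr1 (y axis) against that of Irf8 (x axis), both relative to the array's 75th percentile, with 1 point per array coloured by group. The groups lie in the same order on both axes, IL-4c lowest and Thio highest, and Pearson r over the 14 arrays is 0.982; within Thio+IL-4c the array with the highest Irf8 level has the lowest Fcgr1 level.

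The genes most like the others were Ndufv1, Ndufa9 and Lars for Fcgr2b (r = 0.993, 0.992 and 0.992), Kctd12b, Trp53inp1 and Trim41 for Fcgr4 (0.959, 0.948 and 0.948) and Slc15a4, Man1c1 and Cdc42se2 for Fcer1g (0.972, 0.971 and 0.967). They were Utp6, Cfhr2 and Fau for Fcgr3 (0.968, 0.968 and 0.962) and Peak1, D230025D16Rik and Dusp28 for Fcgrt (0.990, 0.989 and 0.989).

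Around the receptors, genes on both the activating and the inhibitory side passed as lower with IL-4c in resident cells, where 14.8% of all genes passed as lower and 31.6% in either direction. The called shares of the other Fc receptors, the Fcer1g partners, the actin genes and the interferon and myeloid genes lay close to that 31.6%, and no list was tested against it. Of 27 ITAM kinases and adaptors 10 fell and 3 rose (median difference -0.26, against -0.0024 over all genes), with the kinase gene Tec lowest (-1.68, adjusted p = 1.8e-05) and Fgr, a kinase of the Src family, highest (1.36, adjusted p = 0.0001). Syk, the kinase that binds the Fcer1g ITAM, fell by 0.37 (adjusted p = 0.029). Of 19 inhibitory phosphatases, adaptors and receptors 8 fell and none rose (median -0.38), led by the ITIM receptor gene Pirb (-2.36). Inpp5d, the phosphatase that Fcgr2b recruits, had a difference of -0.06 (adjusted p = 0.78) and did not pass.

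Of 7 other partners of the Fcer1g chain with a probe, the C-type lectin gene Clec4d fell by 4.16 (adjusted p = 2.9e-06) and Pira2 by 1.70, and the other 5 did not pass (list median -0.0046). Of 13 other Fc receptors 3 fell and 1 rose (median -0.39), led by the IgM receptor gene Fcmr (-1.88) and Fcrl5 (0.54), whose other probe went the opposite way (-0.40). The interferon gamma and myeloid list had 4 lower and none higher of 13 (median -0.18), with Irf8 lowest, while Spi1 (-0.18) and Stat6 (-0.14) did not pass. The other probes of Stat6 gave -1.10 and -0.30. Of 4 NADPH oxidase genes Cybb, the catalytic subunit, fell by 1.43 and Ncf4 rose by 0.63 (list median -0.16). Of 21 genes of the phagocytic actin machinery 4 rose, with Rac1 highest at 0.78 (0.18 at its other probe), and 3 fell, with Coro1a lowest at -2.10 (list median 0.06). B2m, the light chain of FcRn, fell by 0.76 (adjusted p = 0.0033), beside the fall of 2.03 for Fcgrt. Its call ended under both quantile settings (-0.23 in each) and in the authors' deposited table (-0.45).

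In elicited cells 38.9% of all genes passed, 16.1% higher and 22.8% lower. There all 4 NADPH oxidase genes were lower with IL-4c, by 2.25 for Cybb (adjusted p = 9.4e-06) and by 0.54 to 0.72 for the rest (list median -0.65, against 0.03 over all genes), and all 4 were called with and without Thio 1. Of the ITAM kinases and adaptors 10 fell and 8 rose (median -0.04; -0.24 without Thio 1), with the adaptor Lat lowest (-2.10) and Fyn highest (2.04), and Syk fell by 0.90 (adjusted p = 7.6e-05). Of the inhibitory list 10 fell and 3 rose (median -0.43), against 8 and 3 without Thio 1 (median -0.31). Inpp5d was at -0.57 (adjusted p = 0.0027), with Clec12a lowest (-1.58) and Pag1 highest (1.51). The last pair lost their calls without Thio 1 (adjusted p = 0.058 and 0.08). Clec4d fell by 4.54 and 3 other Fcer1g partners fell too, while Gp6 rose by 1.07 (list median -0.88). Without Thio 1, 3 of these partners were lower and 1 higher, with a list median of -0.43.

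Of the other Fc receptors 3 rose and 5 fell in elicited cells, with a median of -0.56 (2 and 3 without Thio 1). Fcrls was highest (3.88, adjusted p = 7.2e-08) and Fcrl1 lowest (-2.77, adjusted p = 2.6e-06). The Fcrl1 signal was well above background on 3 of 4 Thio+IL-4c arrays, which limits the size of its fall. Of the interferon and myeloid list 4 fell and 2 rose (4 and 1 without Thio 1; median -0.15), with Irf8 lowest and Jak2 highest (0.56, adjusted p = 0.068 without Thio 1). Stat6 fell by 0.78 (adjusted p = 0.00063), though its other probes gave 0.17 and -0.37, and Spi1 (-0.28) did not pass. In the actin list 5 fell and 2 rose (median -0.07, and 0.04 without Thio 1). Myo10 was lowest (-2.29) and Rac1 highest (0.36, and -0.11 at its other probe). The difference of B2m was -0.44 (adjusted p = 0.052) and did not pass, but it passed as lower with quantile normalization (-0.73), with normexp and quantile normalization (-0.78), with normexp at the 75th percentile (-0.50) and in the authors' deposited table (-0.64).

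**Figure D5:**
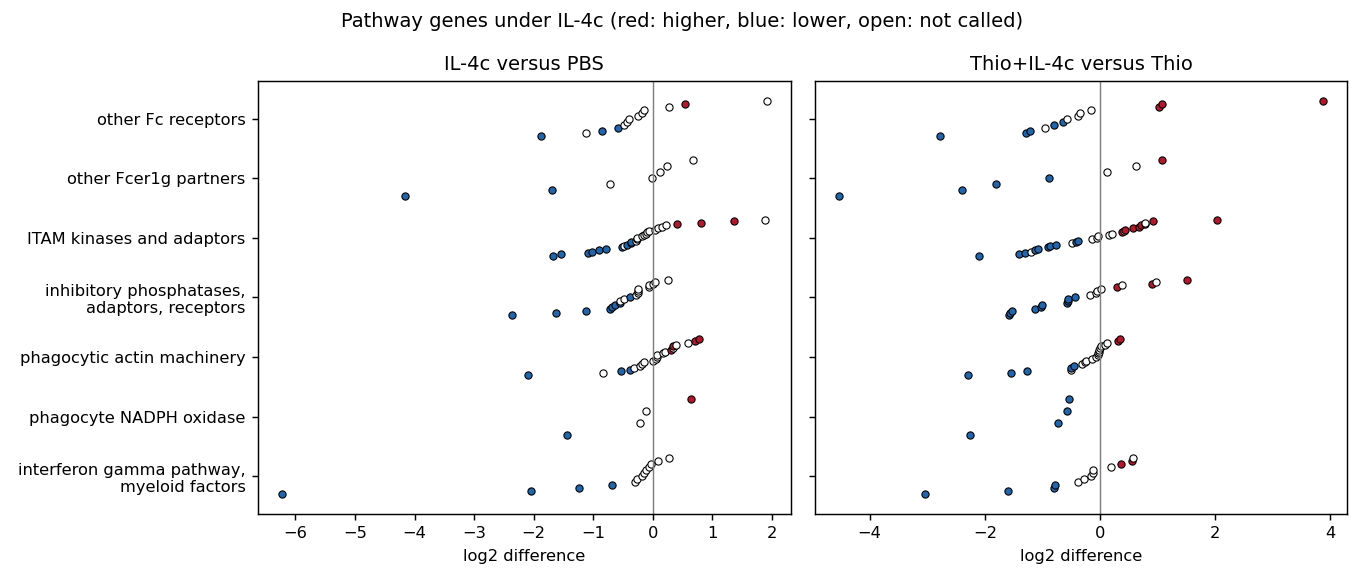
Log2 difference with IL-4c of each measured gene of 7 lists around the Fc receptors (x axis), in resident cells on the left and elicited cells on the right, with red for higher, blue for lower and open points for genes that did not pass. All 4 NADPH oxidase genes are lower in the elicited cells, and the lowest point on the left is Irf8 (-6.22).

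Markers of other cells also passed in these comparisons, in which 31.6% of all genes passed in resident and 38.9% in elicited cells, and several of the counts below lie at or under those shares. With IL-4c in resident cells 3 of 5 macrophage markers were lower, as were 5 of 9 for B cells, 3 of 9 for T and NK cells, 2 of 9 for neutrophils and 2 of 7 for mast cells and basophils, while 2 of 6 for dendritic cells and 1 of 5 for eosinophils were higher. With IL-4c in elicited cells 2 of 5 macrophage, 2 of 9 B cell, 3 of 7 mast cell and basophil and 1 of 5 eosinophil markers were lower, and 2 of 9 neutrophil markers were higher. In the same cells 1 T and NK cell marker was higher and 2 lower of 9, and 2 dendritic cell markers were higher and 1 lower of 6. B cells also carry Fcgr2b as their only Fc gamma receptor. The B cell markers summed to 10.7 to 19.6 in PBS, 3.05 to 3.53 in IL-4c, 3.01 to 4.12 in Thio and 3.08 to 3.35 in Thio+IL-4c, and their part in the Fcgr2b levels was not tested.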

How the data were processed

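RNA of 14 samples was hybridised to 1-colour Agilent arrays, 1 array per sample; groups come from the treatment labels. The authors deposited a scanner table of spot intensity (Cy3) per array and a table of log2 values that they had processed. Per the file headers, the intensity used here is the processed signal of Feature Extraction 11.0.1.1, already background-subtracted; the submitters' processing notes name version 11.5 and limma. The sources used here name no genome build for the array design. In the authors' deposited log2 table all arrays share a median of 9.23, its scale and direction match the scanner values (r of 0.989 to 0.995 with the log2 median signal), and its exact normalization stays unknown.

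Control spots (3671 of 62976) and 113 to 165 spots per array with an outlier mark were left out, and spots of a probe were averaged on the log2 scale. The 75th percentile of the processed signal was 1199.5 to 3605 over the arrays. RefSeq accessions of the probes gave a gene symbol to 27235 of 55681 probes, through RefSeq's table of GRCm38.p6; 28446 stayed unnamed. Probes well above background on at least 3 arrays were kept, and the brightest probe stood for its gene. The number of arrays limits the precision.

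limma 3.58.1 (R 4.3.3; lmFit, contrasts.fit, eBayes) was fitted over all 14 arrays with 1 mean per group. A gene was called at a two-sided Benjamini-Hochberg adjusted p under 0.05 over all 20346 genes. The script was tested on simulated data. The members, the gene lists (other Fc receptors, other Fcer1g partners, ITAM kinases and adaptors, inhibitory genes, actin machinery, NADPH oxidase, interferon gamma pathway and myeloid factors, B2m, and markers of 7 cell types) and the tests were chosen with earlier results of these data known. Of each list, the called genes with the largest rise and the largest fall are named, plus Syk, Inpp5d, Spi1, Stat6, Cybb and B2m; the other genes named beside them were chosen after their values were seen. A few genes of these lists are not reported here and were left out of the list counts and sums. Promoter sequences are RefSeq's. Probe sequences and protein sequences were not used here, so hybridisation of a probe to a related receptor gene was not tested.

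Alternatives were other background corrections and scalings, the authors' table, other filters, the mean of all probes of a gene, the slide and the replicate number as blocks, array weights, only the groups compared, and leaving out each array. Whether replicate numbers pair the samples could not be settled, and the main fit treats the samples as unpaired.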

Additional observations from a re-analysis of the deposited data

Results flagged for a closer look

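The effect of IL-4c differed between elicited and resident cells, by the limma test of the difference itself, for 4 of the 6 Fc receptor genes. The difference, elicited minus resident on the log2 scale, was 3.77 for Fcgr1, 1.30 for Fcgr3, -1.31 for Fcgr4 and -0.53 for Fcgr2b. Of the genes around the receptors, it was -0.52 for the kinase gene Syk, -0.51 for the phosphatase gene Inpp5d and -0.64 for Stat6, whose other probes gave 1.28 and -0.07. Among the named genes of the lists it was 4.73 for Fcrls, -2.38 for Fcrl1, -2.05 for Cd300ld, 1.23 for Fyn and -2.04 for Lat. It was 2.02 for Dok2, -1.54 for Sirpa, 0.52 for Dock1, -2.63 for Myo10 and -1.21 for Ncf4. Irf8 had a difference of 3.18 and Ifngr2 of -0.72. Each of these passed an adjusted p under 0.05, as did 32.3% of all genes. No array of the 2 groups of 4 stood apart from its group for any of the 6 Fc receptor genes by Dixon's 95% critical value (0.829 for 4 arrays); the nearest was Thio+IL-4c 1 for Fcer1g, whose gap was 0.828 of the group's range.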

How the results depend on the processing

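Over 26 alternatives (25 for the difference of effects), 774 differences of the 6 Fc receptor genes were recomputed. Of these, 730 kept direction and side of the threshold, 27 lost the call, 12 gained one and 5 turned sign. All 156 for IL-4c versus PBS kept both. Not every alternative could change a difference. With 1 probe per gene, the filters and the mean of all probes could change only the adjusted p. In IL-4c versus PBS the same holds for the fixed slide block, for only the groups compared and for leaving out an array of another group. The sign turns were Fcgr3 in Thio+IL-4c versus IL-4c (-0.022, the authors' deposited table), and, in the difference of effects, Fcer1g (-0.34 with quantile normalization, -0.36 with normexp and quantile normalization, -0.36 in the authors' deposited table) and Fcgrt (-0.17 in the authors' deposited table). The cause was not tested. Of 2013 differences of other named genes 1896 kept both, and 10 turned sign. In IL-4c versus PBS these were, in the authors' deposited table, Inpp5d (0.22), Spi1 (0.074) and Stat6 (0.16). With an array left out Inpp5d ranged from -0.12 (without PBS 3) to 0.0067 (without PBS 2). Stat6 in the difference of effects turned with the mean of all probes (0.19). In Thio+IL-4c versus IL-4c, Ms4a2 (0.84 and 0.34 with the slide as a fixed and a random block) and Plcg1 (0.37, fixed block) turned. B2m in Thio versus PBS turned under both quantile settings (0.074 and 0.12).

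Among the 6 genes, with an array left out, IL-4c versus PBS kept 6 calls, Thio versus PBS had 2 to 3 (main value 3, and 5 with normexp and quantile normalization), Thio+IL-4c versus Thio 5 to 6, both groups given IL-4c against each other 5 to 6, and the difference of effects 2 to 4. The 2 calls in the difference of effects arose without PBS 1, IL-4c 4, Thio+IL-4c 2 or Thio+IL-4c 4.

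Over all genes, Thio versus PBS gave 9006 calls, but 5827 with the slide as a random block, 6006 with it as a fixed block, 14946 with array weights (Thio 1 had a weight of 0.054) and 3726 with only the groups compared, and 6129 to 13895 with an array left out, the most without Thio 1. Thio+IL-4c versus Thio gave 7914, 5206 with only the groups compared, and 6833 to 8902 with an array left out. Thio+IL-4c versus IL-4c gave 14270, 5417 and 5534 with the slide as a fixed and a random block, and 13321 to 15431 with an array left out. IL-4c versus PBS gave 6435, and 5409 to 8749 with an array left out; the difference of effects gave 6568, and 5610 to 8151. Of the calls in the difference of effects 38.6% were higher, against 50.7% (4153 of 8185) with normexp on the median signal at the 75th percentile, a change of background correction and input signal with the scaling kept, which moved the median of all genes in IL-4c versus PBS from -0.0024 to -0.16. The authors' deposited table moved it in Thio+IL-4c versus IL-4c from -0.23 to -0.43.

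Same-numbered samples of different groups correlated at -0.446 to 0.368 over 19 pairs, after the group means were taken off. Differently numbered pairs were not looked at, so this range cannot settle whether the numbers pair the samples. With the replicate number as a block the calls over all genes were 5634 (IL-4c in resident cells), 7607 (thioglycollate), 6852 (IL-4c in elicited cells), 13712 (elicited against resident cells under IL-4c) and 5730 (difference of effects), and among the 6 genes 6, 3, 5, 6 and 3, Fcgr2b losing its call in the difference of effects (adjusted p = 0.066). Normexp on the mean signal was not run, since the tables used here have no such column; the median signal was taken instead, an alternative chosen after seeing the data, as were the list counts without Thio 1 and with the slide as a block. In the fixed slide block only Thio 1 ties the slides. Signals near background limit Fcgr1 in the IL-4c arrays. They also limit Fcrl1 in Thio+IL-4c (well above background on 3 of 4 arrays) and Gp6 and Pag1 in Thio (2 of 3 arrays each). The same holds for Ms4a2 in Thio (2 of 3 arrays) and in Thio+IL-4c (3 of 4 arrays).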

Other observations

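With thioglycollate alone, genes around the Fc receptors passed in both directions, as did 44.3% of all genes, 19.9% higher and 24.3% lower. The called shares of the Fcer1g partners and the actin genes lay close to that share. Counts with the slide as a block rest, in this comparison, on Thio 1 alone and so on a single array. Of 27 ITAM kinases and adaptors 10 were higher and 10 lower than in PBS cells (10 and 6 with the slide as a block), with the adaptor Lat highest (2.91, adjusted p = 2.1e-05) and the adaptor Lcp2 lowest (-2.08). Of 7 Fcer1g partners Pira2, an activating receptor of the paired Ig-like family, was higher (2.38) and 2 were lower, led by the C-type lectin gene Clec4e (-3.15). Of 13 other Fc receptors 3 were higher, with Fcrlb at 1.05, and 5 lower, with Fcrla at -2.70. Of 19 inhibitory genes 6 were higher, led by Sirpa (1.45), and 5 lower, led by Dok3 (-1.94).

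In the same comparison Cybb was lower (-1.37) and Ncf4 higher (0.72), the other 2 NADPH oxidase genes not passing. Of 21 actin genes 5 were higher, led by Coro1a (3.20), and 4 lower, led by Wasl (-1.11), and these counts were 9 and 2 with the slide as a block. Of 13 interferon and myeloid genes Ifngr2, a chain of the interferon gamma receptor, was higher (1.42) and 4 were lower, led by Irf1 (-1.89). B2m was lower (-0.81) but had differences of 0.07 and 0.12 under both quantile settings.

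Between the groups given IL-4c, which lie on different slides, 70.1% of all genes passed, 27.4% higher and 42.7% lower, and the list counts give no test against that share. The elicited cells had all 4 NADPH oxidase genes lower, led by Cybb (-2.18), and 1 of the 4 with the slide as a block. Of the ITAM list 13 were higher and 8 lower and of the inhibitory list 7 and 3, against 7 and 2 and 5 and 2 with the slide as a block. Of the other Fc receptors 2 were higher and 9 lower, and of the Fcer1g partners 1 and 4, against 2 and none and 2 and 1 with that block. Of the actin list 4 were higher and 8 lower, and of the interferon and myeloid list 5 and 6, against 2 and 2 and 4 and none with it. Fcrls was 4.89 higher, Coro1a 3.76 higher, Irf8 3.57 higher and B2m 0.49 lower (a difference of -0.0092 with the block, not passing).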
